A study of Arabidopsis thaliana with 12 samples.

Results

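Arabidopsis seedlings carrying the nup1-1 mutation were compared with the wild type Col-0 on medium without the hormone abscisic acid (ABA), to see which processes the genotype changes before any hormone is given. Of 33201 rows in the authors' deposited table of this comparison, 20004 were tested, and the 18932 of these that reached 1 FPKM in at least 1 genotype were used. FPKM is a read count divided by transcript length and library size. Without ABA, 1299 genes differed: 520 were higher in nup1-1, which is 2.75% of the genes used, and 779 were lower, which is 4.11%. Members of the dawn-phased clock genes, B-box and greening regulators, iron uptake and storage genes and photosynthesis genes stood among the lower genes. Members of the sulfur limitation, jasmonate, wound response, cold response and starvation lists stood among the higher ones.

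NUP1, also named NUP136, is a plant protein of the nuclear basket, the filamentous structure on the inner face of the nuclear pore. Pores carry proteins with import and export signals in both directions with the help of karyopherins and the GTPase Ran, and they let processed mRNA out of the nucleus. The basket is a docking place for mRNA export factors. ABA is the hormone of seed dormancy, drought and the arrest of seedling growth, and ABI5 is a bZIP transcription factor through which it acts in seedlings.

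All seedlings were 5 days old and grown on MS medium, a standard salt medium, and RNA was sequenced from 3 samples in each of 4 groups. The groups used for the main comparison were untreated Col-0 and untreated nup1-1; Col-0 and nup1-1 on MS medium with ABA, at a dose the labels do not give, were used only to set the genotype difference beside that on ABA. The labels do not describe the nup1-1 allele, nor say whether the samples of a group were separate cultures, so the p-values may measure technical spread. The authors' deposited tables hold 1 FPKM value per gene and group, so levels are printed without an SD, and the depth of single libraries is unknown. Differences are log2((nup1-1 + 1)/(Col-0 + 1)) in FPKM, which understates the change of low genes; the error after ± is a standard error reconstructed from the deposited test statistic, with a median of 0.22 over the genes used. A gene was called at a deposited q-value, a p-value adjusted over all tested rows, under 0.05. For a called gene printed with its standard error but no q-value, the q in the authors' deposited table was 0.00198, the smallest there. Called genes given only by name, by a range or by a difference without an error can have any q under 0.05. All FPKM levels below are the authors' values, and those of near-identical genes (COR15A and COR15B, the LSU, RAN, SAUR and RBCS genes) are uncertain, since reads may be shared between copies. In whole seedlings, fewer cells of a type and less RNA per cell cannot be told apart.

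The differences were moderate in size. The called genes had a median log2 difference of 0.90 where higher and -0.90 where lower, and the median over all genes used was -0.02. A log2 difference of at least 1 was reached by 203 higher and 280 lower genes, and of at least 2 by 20 and 30. The smallest difference that was called had a size of 0.49. Without adjustment, 3486 genes had a deposited p under 0.05.

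The direction of the calls went with the level of the gene. Among genes whose higher group stood between 1 and 3 FPKM, 88 were higher and 32 lower, and the median difference was 0.06. Between 10 and 30 FPKM the calls were nearly even, with 162 higher and 171 lower. At 300 FPKM or more, 7 were higher and 98 lower, and the median was -0.53. Abundant genes thus lay below the line of equal levels in nup1-1 as a class. The part of this trend in the results on abundant gene groups was not tested.

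**Figure D1:**
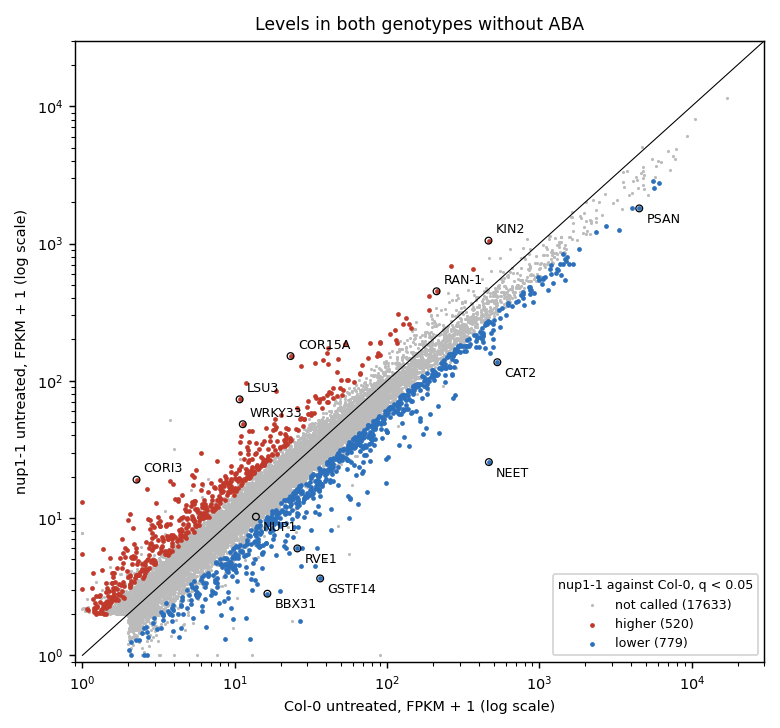
Level of each gene used in untreated Col-0 (horizontal axis) and untreated nup1-1 (vertical axis), in FPKM + 1 on log axes, with 1 point per gene. The 520 genes called higher lie above the diagonal of equal levels and the 779 called lower lie below it, and the cloud bends below the diagonal at high levels.

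NUP1 itself (AT3G10650, chromosome 3, 3325170 to 3330892 on TAIR10) was still transcribed in nup1-1. Col-0 had 12.8 FPKM and nup1-1 had 9.23 FPKM, which is a log2 difference of -0.43 ± 0.21 and was not called (q = 0.243 per the authors' deposited table). The row covers the whole gene, so its level does not check the mutant label. Of the 5 annotated genes on each side of NUP1, none was called, and 1 of these, CAT7, was not tested. Among the other 9 the lowest unadjusted p in the authors' deposited table was 0.0113, for AT3G10680, a gene of the HSP20-like chaperone family at 1.26 and 2.34 FPKM. Within 1 Mb on each side of NUP1, 31 of 467 genes used were called, which is 6.64% and within the range of 6.1% to 7.63% of the whole chromosomes.

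Most genes of the pore and of nuclear transport were not called, and those that were called rose. Of 24 nucleoporin genes used, 2 were higher and none lower, against 2.75% higher and 4.11% lower among all genes used. Their median log2 difference was 0.20, with 18 above and 6 below 0. At an unadjusted p under 0.05 in the authors' deposited test, 4 were higher and 1, NUP1, was lower. AT1G59660, which is annotated as a nucleoporin autopeptidase, rose from 1.96 to 7.59 FPKM, by 1.54 ± 0.19. RAE1, an mRNA export factor that docks at the pore, rose from 22.1 to 35.2 FPKM, by 0.65 ± 0.21 (q = 0.0411 per the authors' deposited table). AT1G10390, a gene with the same annotation as AT1G59660, was much more abundant, at 24.7 and 28.4 FPKM, and was not called (log2 difference 0.19 ± 0.22).

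Of 20 karyopherin and Ran cycle genes, 2 were higher and none lower, with a median of 0.18 and with 15 above and 5 below 0. At an unadjusted p under 0.05, 5 were higher and none lower. XPO1B, an exportin for proteins with a nuclear export signal, rose from 4.27 to 12 FPKM, by 1.31 ± 0.20. RAN-1, a gene for the GTPase Ran that gives transport its direction, rose from 210 to 448 FPKM, by 1.09 ± 0.25. Its neighbour and close copy RAN2 stood at 145 and 230 FPKM, and this log2 difference of 0.66 ± 0.24 was not called (q = 0.0679 per the authors' deposited table). Of 14 mRNA export genes, 1, RAE1, was higher, and no other had an unadjusted p under 0.05. Of 38 proteasome subunit genes none was called, and 1 had an unadjusted p under 0.05, which was lower.

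No core gene of ABA signalling at 1 FPKM or more was called without the hormone. Without the filter, 1 further gene of the list, below 1 FPKM in both groups, was called higher. Among all genes used, 2.75% were higher and 4.11% lower, so few calls would be seen in a list of this size. None of 25 genes for receptors, phosphatases, kinases and bZIP factors was called, with 2 higher and 4 lower at an unadjusted p under 0.05 in the authors' deposited test and a median log2 difference of 0.01. ABI5 (AT2G36270, chromosome 2, 15204764 to 15207528) had 2.16 FPKM in Col-0 against 2.36 FPKM in nup1-1, and the log2 difference was 0.09 ± 0.21 (q = 0.895 per the authors' deposited table). The receptor gene PYR1 stood at 126 and 80.7 FPKM and was not called (-0.63 ± 0.23, q = 0.0632). Of 21 genes for regulators of ABI5 turnover, 2 were higher: SIP4, a CBL-interacting protein kinase gene, rose from 3.34 to 6.57 FPKM (0.80 ± 0.21, q = 0.00839), and AT5G22920, a RING finger gene, from 88.8 to 188 FPKM (1.07 ± 0.24).

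Genes that make, break and release ABA were called in both directions. CYP707A2, the hydroxylase that inactivates ABA in seeds and seedlings, fell from 8.04 to 1.88 FPKM, by a log2 difference of -1.65 ± 0.22. ABA1, the zeaxanthin epoxidase of the carotenoid route to ABA, fell from 132 to 65.8 FPKM (-0.99 ± 0.24, q = 0.00349 per the authors' deposited table). BGLU18, a glucosidase that releases ABA from its glucose ester, rose from 10.4 to 25.8 FPKM (1.23 ± 0.25). The other 9 of the 12 genes were not called.

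Of 16 seed storage and late embryogenesis genes used, 4 were lower and none higher, with a median of -0.85; at an unadjusted p under 0.05, 11 were lower and none higher. The members called were at low levels. The cruciferin gene CRA1 fell from 5.10 to 1.3 FPKM (-1.41 ± 0.24), the oleosin gene OLEO2 from 3.25 to 0.985 FPKM (-1.1 ± 0.28, q = 0.0151), the albumin gene SESA3 from 4.16 to 1.51 FPKM (-1.04 ± 0.28, q = 0.0313) and the dormancy gene DOG1 from 4.53 to 1.82 FPKM (-0.97 ± 0.25, q = 0.0124 per the authors' deposited table). Of 21 genes that use seed oil, none was called, with 2 higher and 1 lower at an unadjusted p under 0.05. Their median was 0.24, with 19 above and 2 below 0.

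Genes of the cold and dehydration response were called mostly higher, though most members were not called. Of 22 genes of the cold list, 5 rose and 1 fell, with a median log2 difference of 0.23, and at an unadjusted p under 0.05, 7 were higher and 4 lower. COR15A (AT2G42540), which encodes a chloroplast protein that protects membranes in the cold, rose from 22.2 to 150 FPKM, by 2.70 ± 0.33. Its neighbour COR15B rose from 52.3 to 184 FPKM, by 1.8 ± 0.32. LTI78, also named RD29A and a widely used reporter of cold and ABA, rose from 12 to 41.9 FPKM, by 1.72 ± 0.28. KIN2, a cold- and ABA-induced gene, had the highest FPKM of all genes called higher and rose from 462 to 1048 FPKM, by 1.18 ± 0.32 (q = 0.0142 per the authors' deposited table). These 4 genes are the cold genes with the most RNA among those called.

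None of the CBF factors that drive this regulon in the cold was called higher. CBF2 fell from 10.8 to 2.96 FPKM, a log2 difference of -1.58 ± 0.26, while CBF1 (1.69 and 1.72 FPKM) and DREB1A, which is CBF3 (2.3 and 3.11 FPKM), were not called. Of 24 genes of the ABA and dehydration list, 4 were higher and none lower (9 and 4 at an unadjusted p under 0.05): LTI78, KIN2, RD20, a caleosin gene (0.611 to 2.99 FPKM, 1.31 ± 0.28), and NAC3, also named ANAC055 (AT3G15500, 2.75 to 17.61 FPKM, 2.31 ± 0.24). Of 6 galactinol and raffinose genes, whose products make protective sugars, GolS2 rose from 0.369 to 4.90 FPKM (2.11 ± 0.27), DIN10 from 186 to 413 FPKM (1.15 ± 0.29, q = 0.0175) and GolS3 from 0.387 to 1.32 FPKM (0.74 ± 0.20, q = 0.0383 per the authors' deposited table). The other 3, among them GolS1 at 5.84 and 2.87 FPKM, were not called. GolS2 and GolS3 reached 1 FPKM only in nup1-1, and without the filter 1 further member, below 1 FPKM in both groups, was called lower.

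The 250 bases before the annotated start of the 4 abundant cold genes are shown because CBF factors are known to bind the DRE core and bZIP factors of the ABA pathway the ABRE core. Sequences and these coordinates are from RefSeq TAIR10.1, read 5′ to 3′ along the gene, at chr2:17712331-17712580 on the minus strand for COR15A, chr2:17710434-17710683 on the minus strand for COR15B, chr5:21240467-21240716 on the plus strand for LTI78 and chr5:5211469-5211718 on the plus strand for KIN2. Capitals mark the DRE core CCGAC and the ABRE core ACGTG on either strand.
COR15A: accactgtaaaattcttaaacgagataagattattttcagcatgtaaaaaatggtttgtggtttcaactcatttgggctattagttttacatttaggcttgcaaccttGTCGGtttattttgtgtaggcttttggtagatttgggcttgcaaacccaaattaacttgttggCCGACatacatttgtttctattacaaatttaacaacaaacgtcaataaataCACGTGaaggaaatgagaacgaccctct
COR15B: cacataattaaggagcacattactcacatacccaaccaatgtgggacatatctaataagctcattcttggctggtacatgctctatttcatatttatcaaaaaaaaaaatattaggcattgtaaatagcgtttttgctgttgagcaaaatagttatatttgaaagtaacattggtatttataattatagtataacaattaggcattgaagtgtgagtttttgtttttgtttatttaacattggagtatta
LTI78: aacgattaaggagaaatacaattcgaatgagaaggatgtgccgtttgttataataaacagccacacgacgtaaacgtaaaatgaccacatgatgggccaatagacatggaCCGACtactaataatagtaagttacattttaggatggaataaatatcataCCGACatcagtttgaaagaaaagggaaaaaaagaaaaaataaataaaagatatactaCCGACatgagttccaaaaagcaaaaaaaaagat
KIN2: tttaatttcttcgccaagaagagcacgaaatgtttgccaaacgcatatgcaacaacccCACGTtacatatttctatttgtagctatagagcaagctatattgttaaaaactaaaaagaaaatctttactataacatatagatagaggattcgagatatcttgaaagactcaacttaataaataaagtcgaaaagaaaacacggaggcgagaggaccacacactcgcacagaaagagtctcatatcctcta
COR15A holds 2 DRE cores, at -142 and -79 from the start, and an ABRE core on each strand within 1 palindrome at -28. LTI78 holds 3 DRE cores, at -140, -90 and -33, KIN2 holds 1 ABRE core at -192, and neither core is found in this window of COR15B. The windows end at the RefSeq start, which for COR15B lies 488 bases before the start in the authors' deposited table, for KIN2 192 and for LTI78 132 bases before it, while for COR15A the 2 starts are the same, so the matches depend on the start used. Of the promoters of 18634 genes used, 13% hold a DRE core and 23.8% an ABRE core. Among genes called higher the shares were 12.6% and 32.6%, and among genes called lower 10.1% and 27.0%. A match is a description of the letters and not a bound site.

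The clock genes that were called were all lower, and they are genes of the morning. Of 31 clock genes used, 11 fell and none rose, with a median log2 difference of -0.17. Without adjustment, 15 were lower and none higher at p under 0.05 in the authors' deposited test. Of the REVEILLE family of MYB-like factors, RVE8 fell from 8.48 to 1.2 FPKM (-2.11 ± 0.25), RVE1 from 24.8 to 5.01 FPKM (-2.1 ± 0.22) and RVE2 from 164 to 49.8 FPKM (-1.70 ± 0.23). LCL1, also named RVE4, fell from 49.3 to 25.6 FPKM (-0.92 ± 0.21, q = 0.00349). Their relatives CCA1 and LHY, the dawn repressors of the core loop, fell from 3.98 to 1.77 FPKM (-0.85 ± 0.21) and, for the latter, from 1.64 to 0.482 FPKM (-0.83 ± 0.17). These 6 genes span a wide range of levels, and all were lower in nup1-1.

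The coactivators that work with RVE8 and the DOF repressors of flowering that peak in the morning fell as well. AT3G54500, which is LNK2, fell from 28.6 to 13.3 FPKM (-1.05 ± 0.22), and AT3G12320, which is LNK3, from 4.56 to 1.75 FPKM (-1.01 ± 0.24, q = 0.00729 per the authors' deposited table). CDF1 (AT5G62430) fell from 21.1 to 6.50 FPKM (-1.56 ± 0.22), CDF2 from 8.65 to 3.37 FPKM (-1.14 ± 0.21) and CDF3 from 31.9 to 14.2 FPKM (-1.11 ± 0.21). Day and evening genes were not called: PRR7 stood at 39.5 and 43.6 FPKM, TOC1 at 73.1 and 76.8, GI at 29.6 and 34.2 and ELF4 at 413 and 270 (-0.61 ± 0.23, q = 0.0916 per the authors' deposited table). PRR9, the earliest of the PRR genes in the day, stood at 1.54 and 1.49 FPKM. The labels give no hour of harvest.

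The windows of RVE1, CCA1, LHY and CDF2 are shown because each holds a G-box, CACGTG, a palindrome that contains the ABRE core and is known to be bound by bZIP and bHLH factors of the light pathway. They were chosen after their values were seen. In RefSeq TAIR10.1 they lie at chr5:5692993-5693242 on the minus strand for RVE1, chr2:19245341-19245590 on the plus strand for CCA1, chr1:37872-38121 on the minus strand for LHY and chr5:15878448-15878697 on the plus strand for CDF2, and capitals mark the G-box. The RefSeq start differs from that in the authors' deposited table by 90 bases for RVE1, 81 for CCA1, 1 for CDF2 and 0 for LHY.
RVE1: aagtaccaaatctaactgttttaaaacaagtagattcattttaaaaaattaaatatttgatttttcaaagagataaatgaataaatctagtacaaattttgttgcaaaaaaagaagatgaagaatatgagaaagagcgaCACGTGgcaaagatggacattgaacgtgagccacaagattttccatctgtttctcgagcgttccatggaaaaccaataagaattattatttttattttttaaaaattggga
CCA1: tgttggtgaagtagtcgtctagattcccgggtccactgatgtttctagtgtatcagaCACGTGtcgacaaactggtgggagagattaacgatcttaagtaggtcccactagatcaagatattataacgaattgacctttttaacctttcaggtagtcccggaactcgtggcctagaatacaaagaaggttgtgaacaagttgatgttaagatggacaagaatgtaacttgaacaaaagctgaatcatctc
LHY: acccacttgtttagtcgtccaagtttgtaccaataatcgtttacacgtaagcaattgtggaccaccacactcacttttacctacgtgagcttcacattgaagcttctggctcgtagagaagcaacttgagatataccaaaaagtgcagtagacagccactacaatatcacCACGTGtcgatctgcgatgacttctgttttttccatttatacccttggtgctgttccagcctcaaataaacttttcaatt
CDF2: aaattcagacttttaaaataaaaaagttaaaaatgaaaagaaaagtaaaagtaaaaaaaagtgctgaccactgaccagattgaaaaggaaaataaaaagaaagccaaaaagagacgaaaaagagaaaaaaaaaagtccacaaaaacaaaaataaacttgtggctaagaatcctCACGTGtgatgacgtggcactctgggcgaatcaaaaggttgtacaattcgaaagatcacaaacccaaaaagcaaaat
The G-box starts at -111 in RVE1, -193 in CCA1, -80 in LHY and -77 in CDF2. It was found in 6 of the 11 clock promoters that were lower, against 7.37% of the 18634 promoters, 8.83% of those of genes called lower and 7.95% of those of genes called higher. The evening element AAATATCT, searched on both strands, was found in 0 of the 11 and in 5.01% of all promoters. With 11 promoters picked by their change, these counts are a description only.

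**Figure D2:**
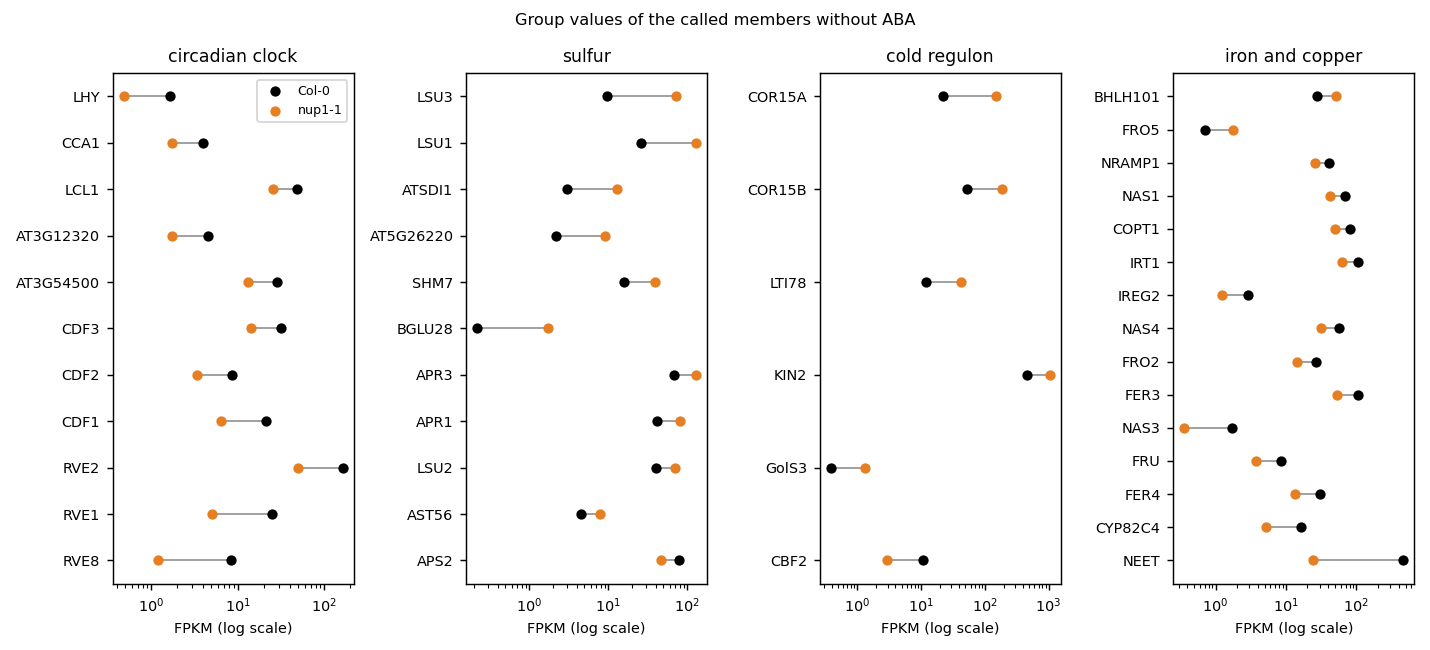
FPKM in untreated Col-0 and untreated nup1-1 for the called members of the clock, sulfur, cold, and iron and copper lists, on a log axis, with a line joining the pair of values of each gene. All 11 clock genes shift to lower values in nup1-1, 10 of 11 sulfur genes shift to higher ones, and NEET has the longest line, from 465 to 24.6 FPKM.

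Light signalling genes changed in both directions. Of 55 genes used, 17 fell and 8 rose, with a median of -0.15. Of the small B-box genes, BBX31 fell from 15.4 to 1.81 FPKM (-2.54 ± 0.33), BBX30 from 7.14 to 0.982 FPKM (-2.04 ± 0.36, q = 0.00349) and BBX18 from 23.0 to 6.25 FPKM (-1.73 ± 0.24). BBX32, BBX29, COL2, BBX19, BBX28 and COL1 fell too, with log2 differences of -0.88 to -1.53. B-box proteins act in seedling greening and photoperiod responses, several of them together with the bZIP factor HY5.

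HY5 itself stood at 37.3 and 25.6 FPKM and was not called (-0.53 ± 0.22, q = 0.145 per the authors' deposited table), whereas its partner HYH fell from 67.0 to 20.3 FPKM (-1.67 ± 0.24). Greening factors fell together: GLK2, an activator of chloroplast genes, from 182 to 79.3 FPKM (-1.19 ± 0.23), and the GATA factors CGA1 from 9.03 to 3.23 FPKM (-1.25 ± 0.23) and GNC from 24.6 to 13.2 FPKM (-0.85 ± 0.21). RUP2, a repressor of the UV-B receptor, fell from 18.9 to 7.78 FPKM (-1.18 ± 0.21), and the light-stress genes ELIP1 and ELIP2 fell from 69.7 to 32.7 FPKM (-1.07 ± 0.22) and, for the latter, from 30 to 17.2 FPKM (-0.77 ± 0.23, q = 0.0175). The plastid sigma factor gene SIGE fell from 12.7 to 6.36 FPKM (-0.90 ± 0.21).

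Genes for several phytochrome-interacting factors, which promote growth in the dark and hold back greening, rose. PIF3 rose from 12.5 to 28.4 FPKM (1.12 ± 0.21), PIF4 from 25.7 to 51.5 FPKM (0.97 ± 0.22), PIL6, which is PIF5, from 30.7 to 55.0 FPKM (0.82 ± 0.22, q = 0.00839), and PIL5, which is PIF1, from 12.4 to 20.9 FPKM (0.71 ± 0.22, q = 0.0298 per the authors' deposited table). The photoreceptor gene PHYA rose from 25.0 to 42.6 FPKM (0.75 ± 0.23, q = 0.0237), and PAR1, a regulator of the shade response, from 7.06 to 14.5 FPKM (0.95 ± 0.25, q = 0.00349). BBX17 and COL5 rose by 0.88 ± 0.22 and 0.77 ± 0.23 (q = 0.0159).

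Nuclear photosynthesis genes lay lower almost without exception, while few passed the test singly. Of 51 light-harvesting and photosystem genes, 50 had a difference below 0 and the median was -0.67; 7 were called lower and none higher, with 28 lower and none higher at an unadjusted p under 0.05 in the authors' deposited test. LHCB2.3, an antenna gene of photosystem II, fell from 472 to 159 FPKM (-1.56 ± 0.24). PSAN, a photosystem I subunit gene, fell from 4522 to 1800 FPKM (-1.33 ± 0.34, q = 0.00946), and PETC, the Rieske iron-sulfur protein gene of the cytochrome complex, from 2726 to 1343 FPKM (-1.02 ± 0.33, q = 0.036). The most abundant antenna gene, LHB1B2, stood at 17150 and 11567 FPKM and was not called (-0.57 ± 0.48, q = 0.603 per the authors' deposited table).

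All 29 Calvin cycle and photorespiration genes had a difference below 0, with a median of -0.72; 8 were called lower and none higher (19 and 0 at an unadjusted p under 0.05). CAT2 (AT4G35090), the peroxisomal catalase of photorespiration, fell from 528 to 136 FPKM (-1.96 ± 0.27). The aldolase gene FBA1 fell from 1225 to 519 FPKM (-1.24 ± 0.31), the rubisco small subunit gene RBCS2B from 5674 to 2541 FPKM (-1.16 ± 0.37, q = 0.0433) and the photorespiratory genes GGT1 (AT1G23310) and HPR from 1287 to 609 FPKM (-1.08 ± 0.33, q = 0.0215) and, for the latter, from 868 to 426 FPKM (-1.02 ± 0.29, q = 0.0124). RCA, rubisco activase, stood at 7247 and 3422 FPKM and was not called (-1.08 ± 0.59, q = 0.295 per the authors' deposited table). Carbonic anhydrase, CA1, fell from 4032 to 1808 FPKM (-1.16 ± 0.38, q = 0.04997), and OEP6, a protein of the plastid outer envelope, from 6081 to 2755 FPKM (-1.14 ± 0.32, q = 0.0215).

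Of 25 chlorophyll synthesis genes, 4 were lower and none higher (11 and 0 at an unadjusted p under 0.05), and the list median was -0.43. HEMA1, whose product takes the first committed step of the pathway, fell from 75.7 to 25.1 FPKM (-1.55 ± 0.22). GUN5, the large subunit of magnesium chelatase, fell from 424 to 189 FPKM (-1.16 ± 0.31), its activator GUN4 from 182 to 93.6 FPKM (-0.95 ± 0.22) and PCB2, a divinyl reductase, from 159 to 90.0 FPKM (-0.81 ± 0.23, q = 0.0151). PORB, the light-dependent reductase gene, stood at 655 and 662 FPKM (0.01 ± 0.28, q = 0.988 per the authors' deposited table), so the list did not move as a block.

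The level trend given above bears on these lists. Genes at 100 FPKM or more, 1734 in number, had a median difference of -0.39, and the 1443 of them outside the photosynthesis and ribosome groups had a median of -0.35, with 37 higher and 198 lower. The 304 ribosomal protein genes, which are also abundant, had a median of -0.39, with 25 called lower and none higher (114 and 1 at an unadjusted p under 0.05), and on ABA a median of 0.25. The 20 reference genes often used to normalise expression had a median of -0.16; none was called, and none had an unadjusted p under 0.05. The part of the level trend in these results was not tested.

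**Figure D3:**
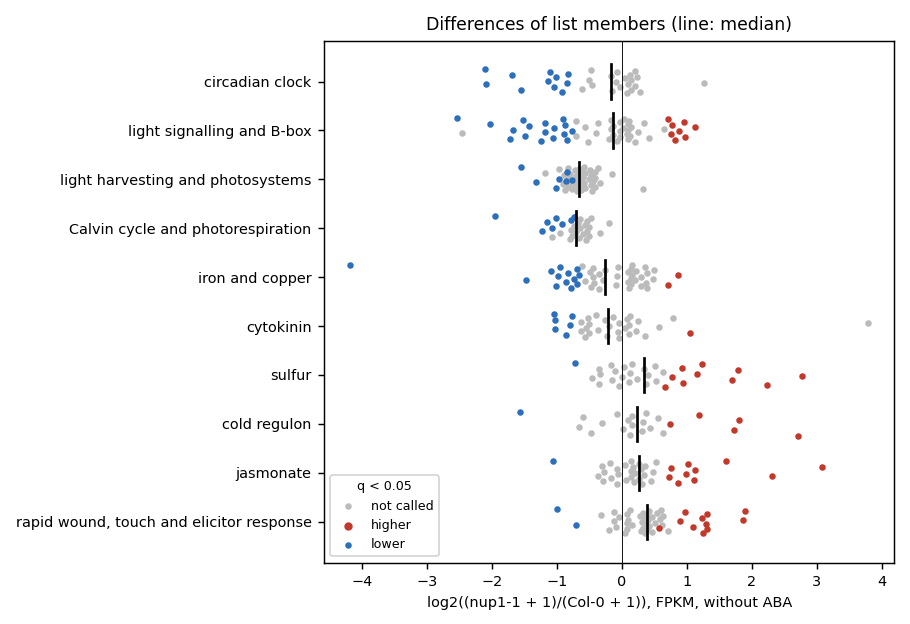
Log2 difference, nup1-1 against Col-0 without ABA, of each member of 10 gene lists, with 1 point per gene and a line at the median of the list. The photosynthesis lists sit below 0 as a body, with medians of -0.67 and -0.72, while the sulfur, jasmonate and rapid wound response lists have medians of 0.35, 0.25 and 0.39.

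Among nutrient genes, iron and phosphate lists held mostly lower calls and the sulfur list mostly higher ones. NEET (AT5G51720, chromosome 5, 21009592 to 21010345), which encodes an iron-sulfur cluster protein of organelles, fell from 465 to 24.6 FPKM, a log2 difference of -4.19 ± 0.26, the lowest difference of all genes called. Of 47 iron and copper genes, 13 fell and 2 rose, with a median of -0.26. Root iron uptake genes fell: FRU, the bHLH factor FIT that controls them, from 8.51 to 3.71 FPKM (-1.01 ± 0.24, q = 0.00622), the ferric reductase FRO2 from 26.5 to 14.1 FPKM (-0.86 ± 0.22, q = 0.00349) and the iron transporter IRT1 from 106 to 62.9 FPKM (-0.74 ± 0.25, q = 0.0465 per the authors' deposited table).

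Iron storage and chelation genes fell alongside. The ferritin genes FER4 and FER3 fell from 30.3 to 13.6 FPKM (-1.09 ± 0.22) and, for the latter, from 104 to 53.1 FPKM (-0.95 ± 0.22), CYP82C4, a P450 gene of coumarin oxidation in iron-limited roots, from 16.4 to 5.22 FPKM (-1.48 ± 0.22), and the nicotianamine synthase genes NAS3, NAS4 and NAS1 with log2 differences of -0.99, -0.83 and -0.69. Uptake genes are induced when iron is short and ferritins when it is ample, and here both kinds were lower. BHLH101, a factor induced by iron shortage, rose from 27.6 to 51.2 FPKM (0.87 ± 0.22, q = 0.00349), while its relative BHLH100 stood at 102 and 117 FPKM and was not called. IREG2, COPT1 and NRAMP1 also fell and FRO5 also rose.

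The sulfur genes that rose are markers of sulfate shortage. Of 31 genes used, 10 rose and 1 fell, with a median of 0.35. LSU3 and LSU1, genes named for their response to low sulfur, rose from 9.76 to 72.2 FPKM (2.77 ± 0.30) and, for the latter, from 26.3 to 128 FPKM (2.24 ± 0.26), and LSU2 from 40 to 69.1 FPKM (0.77 ± 0.24, q = 0.0313). ATSDI1, a repressor of glucosinolate synthesis induced by sulfur shortage, rose from 3.02 to 12.8 FPKM (1.78 ± 0.26), BGLU28, a glucosidase gene, from 0.219 to 1.72 FPKM (1.16 ± 0.18), and AT5G26220, which breaks down glutathione, from 2.15 to 9.16 FPKM (1.69 ± 0.28).

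Genes of sulfate reduction followed in part. APR1 and APR3, the reductases of activated sulfate, rose from 41.7 to 80.2 FPKM (0.93 ± 0.23) and, for the latter, from 67.8 to 130 FPKM (0.93 ± 0.27, q = 0.00946). SHM7, a serine hydroxymethyltransferase gene, rose by 1.23 ± 0.21 and the sulfate transporter gene AST56 by 0.66 ± 0.20 (q = 0.0306 per the authors' deposited table). APS2 (AT1G19920), an ATP sulfurylase gene, fell from 78.5 to 46.9 FPKM (-0.73 ± 0.22, q = 0.0222), while APS1 stood at 181 and 185 FPKM. Of 48 glucosinolate genes, 2 rose, the myrosinase gene TGG2 (39.9 to 173 FPKM, 2.09 ± 0.28) and the indole glucosinolate regulator MYB51 (5.09 to 16.8 FPKM, 1.55 ± 0.22), and 2 fell, IPMI2 and IPMI1 of methionine chain elongation. These counts are near the 2.75% higher and 4.11% lower among all genes used.

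Of 25 phosphate starvation genes, 4 fell and 1 rose. IPS1, a noncoding RNA that sequesters miR399, fell from 21.6 to 4.54 FPKM (-2.03 ± 0.30), and its relative AT5G03545 rose from 29.4 to 56.0 FPKM (0.91 ± 0.23). The galactolipid synthase genes MGDC and MGD2 fell, with log2 differences of -1.58 ± 0.23 and -0.64 ± 0.21 (q = 0.0411), and the phosphatase gene PS2 (AT1G73010) fell as well (-1.29 ± 0.24). Of 42 nitrogen genes, 4 fell and 1 rose; WR3, a partner of the high-affinity nitrate transporters, fell from 35.2 to 13.6 FPKM (-1.31 ± 0.22), and ASN1, an asparagine synthetase gene of dark and sugar-starved tissue, rose from 1.60 to 3.24 FPKM (0.71 ± 0.20, q = 0.0175 per the authors' deposited table).

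The called genes of the jasmonate and defence lists were mostly higher. Of 37 jasmonate genes, 10 rose and 1 fell, with a median of 0.25 (13 and 1 at an unadjusted p under 0.05). Of 18 salicylic acid and defence genes, 4 rose and none fell, while 9 lay above and 9 below 0, with a median of 0.09. CORI3, a gene induced by jasmonate and coronatine, rose from 1.26 to 18.0 FPKM, by 3.07 ± 0.29. The vegetative storage protein genes VSP2 and VSP1, standard jasmonate markers, rose from 5.01 to 28.7 FPKM (2.31 ± 0.29) and, for the latter, from 1.92 to 5.28 FPKM (1.11 ± 0.28), and LOX2, a lipoxygenase of jasmonate synthesis, from 46.7 to 144 FPKM (1.61 ± 0.25). ST2A, ORA59, LOX4, OPCL1, JAZ1 and CYP94B3 rose by 0.73 to 1.13. The member that fell, TIFY7, encodes a JAZ repressor of the pathway (42.7 to 19.8 FPKM, -1.07 ± 0.21).

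Of 27 WRKY genes used, 6 rose and none fell (10 and 1 at an unadjusted p under 0.05). WRKY33, the activator of camalexin synthesis, rose from 10.3 to 47.3 FPKM (2.1 ± 0.28), WRKY70, a factor of salicylic acid signalling, from 6.01 to 16.9 FPKM (1.35 ± 0.25) and WRKY18 from 6.96 to 15.4 FPKM (1.04 ± 0.22). WRKY40 stood at 5.67 and 18.4 FPKM and was not called (1.54 ± 0.44, q = 0.115 per the authors' deposited table). Of 18 salicylic acid genes, 4 rose and none fell (5 and 1 at an unadjusted p under 0.05): WRKY70, the synthesis gene ICS2 (2.61 to 8.02 FPKM, 1.32 ± 0.21), its regulator CBP60G (1.23 to 4.23 FPKM, 1.23 ± 0.23) and the receptor gene NPR3 (7.21 to 14.5 FPKM, 0.92 ± 0.20).

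Of 48 genes of the rapid response to wounding, touch and elicitors, 11 rose and 2 fell, with a median of 0.39. The touch genes TCH3, a calmodulin-like gene, and TCH4, a xyloglucan endotransglucosylase gene, rose from 37.2 to 141 FPKM (1.90 ± 0.26) and, for the latter, from 34.5 to 68.5 FPKM (0.97 ± 0.26, q = 0.0104). The kinase genes MPK3 and MKK9 rose from 29.3 to 70.1 FPKM (1.23 ± 0.23) and, for the latter, from 15.9 to 35.2 FPKM (1.1 ± 0.22), SIB1 from 1.71 to 8.83 FPKM (1.86 ± 0.31) and ERF2 from 17.57 to 45.1 FPKM (1.31 ± 0.23). RAP2.6 and PHI-1 fell, with log2 differences of -1.01 ± 0.25 (q = 0.00494) and -0.71 ± 0.24 (q = 0.0484 per the authors' deposited table).

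Of 15 camalexin and indole defence genes, 5 rose and none fell, also at an unadjusted p under 0.05, where 6 were higher. PEN3 (AT1G59870), an ABC transporter gene, rose from 104 to 219 FPKM (1.07 ± 0.29, q = 0.00839), and CYP71A12 rose from 0.184 to 1.2 FPKM (0.89 ± 0.17, q = 0.00622). Of 24 ethylene genes, 5 rose and none fell (10 and 0 at an unadjusted p under 0.05), and the list median was 0.38: TEM1 and RAV2, paralogous repressors of flowering, from 89.2 to 192 FPKM (1.1 ± 0.24) and, for the latter, from 126 to 260 FPKM (1.04 ± 0.24), EBF2 by 0.99 ± 0.24, and the synthase genes ACS6 and ACS11 by 0.93 ± 0.26 (q = 0.0132) and 0.71 ± 0.19 (q = 0.0334). By product name, 7 of 88 NBS-LRR resistance genes, 4 of 17 cysteine-rich receptor-like kinase genes and 10 of 47 NAC genes were higher. In these families 0, 0 and 1 were lower, and 0, 2 and 2 at an unadjusted p under 0.05 in the authors' deposited test. Among 89 lectin genes, 5 were higher and 1 lower. Other defence families were not mostly higher. Among 16 protease inhibitor genes, 0 were higher and 5 lower, and among 31 CAP and pathogenesis-related genes, 1 and 3. For 20 chitinase and glucanase genes the counts were 1 and 2, and for 160 defensin and thionin genes 4 and 4.

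Of 45 genes of carbon starvation, darkness and senescence, 11 were higher, 1 was lower and 33 were not called, with a median of 0.30. SEN1 (AT4G35770), a marker of dark-induced senescence, rose from 10.8 to 94.6 FPKM, by 3.01 ± 0.24. The senescence factors NAC6, also named ORE1, and NAP rose from 3.23 to 12.2 FPKM (1.65 ± 0.24) and, for the latter, from 0.313 to 1.74 FPKM (1.06 ± 0.24, q = 0.0167). TPS8 and TPS11, trehalose-phosphate synthase-like genes that respond to sugar status, rose from 17.3 to 51.7 FPKM (1.52 ± 0.22) and, for the latter, from 9.20 to 20.21 FPKM (1.06 ± 0.21). AT3G15450, annotated as an aluminium-induced protein, rose from 263 to 687 FPKM (1.38 ± 0.27) and had the next highest level after KIN2 among the genes called higher.

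Calls among growth hormone genes went in both directions, and their share differed between lists. Of 34 cytokinin genes, 6 fell and 1 rose, with a median of -0.21. The type-A response regulators ARR4, RR16, ARR6, ARR7 and ARR9, primary cytokinin response genes that feed back on the pathway, fell, with log2 differences of -0.77 to -1.05; ARR4 went from 118 to 56.3 FPKM (-1.05 ± 0.23). AT1G80440, an F-box gene of the KMD family whose products lower cytokinin responses, rose from 112 to 232 FPKM (1.05 ± 0.24). Its relative AT2G44130 stood at 2.73 and 50.7 FPKM and was not called (p = 0.0641, q = 0.314 per the authors' deposited table), although its log2 difference of 3.79 exceeds that of every called gene.

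Of 25 gibberellin genes, 2 rose and 2 fell. The synthesis gene GA3OX2 fell from 8.67 to 3.27 FPKM (-1.18 ± 0.24) and GA20OX2, which acts before it, rose from 1.69 to 4.06 FPKM (0.91 ± 0.23, q = 0.0104). GASA1 fell from 416 to 201 FPKM (-1.05 ± 0.24), and AT5G14920, a GASA family gene, rose from 85.2 to 151 FPKM (0.82 ± 0.23, q = 0.00839 per the authors' deposited table). Of 51 auxin genes, the conjugation genes GH3.3, WES1 and BRU6 rose by 0.70 to 0.85 and IAA12 fell (-0.67 ± 0.21, q = 0.0283). Of 23 SAUR genes, which promote cell expansion, 6 rose, among them SAUR26 (2.25 to 8.54 FPKM, 1.55 ± 0.31, q = 0.00349) and SAUR19 (1.86 to 6.74 FPKM, 1.44 ± 0.35, q = 0.0132), and 3 fell, led by AT4G38860 (72.0 to 27.8 FPKM, -1.34 ± 0.22). None of 23 brassinosteroid genes was called, with 2 higher and 1 lower at an unadjusted p under 0.05.

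Redox genes were called in both directions. The inner mitochondrial NADH dehydrogenase gene NDA1 fell from 17.8 to 4.37 FPKM (-1.80 ± 0.21), VTC2, which controls vitamin C synthesis, from 163 to 52.8 FPKM (-1.60 ± 0.23) and CSD2, the plastid copper/zinc superoxide dismutase gene, from 65.2 to 33.1 FPKM (-0.96 ± 0.23). Of the same 40 genes UGT74E2, an auxin glucosyltransferase gene, rose from 2.13 to 8.14 FPKM (1.55 ± 0.23), GSTU4 by 1.04 ± 0.27 (q = 0.00729) and BCS1 by 0.91 ± 0.21. No heat shock gene of 23 was called, with 1 higher and 1 lower at an unadjusted p under 0.05 in the authors' deposited test. BIP3, an inducible chaperone gene of the endoplasmic reticulum, rose from 0.0715 to 1.17 FPKM (1.02 ± 0.19, q = 0.00494).

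Surface lipid, phenylpropanoid and wall protein genes changed singly. FAR1 (AT5G22500), a fatty acyl reductase gene of suberin, rose from 4.3 to 16.3 FPKM (1.71 ± 0.21), and FACT and ABCG2 rose by 1.12 ± 0.24 (q = 0.00349) and 1.16 ± 0.31 (q = 0.0237). Of 33 phenylpropanoid genes, 3 fell and none rose (9 and 2 at an unadjusted p under 0.05): the flavonol regulators MYB12 (16.4 to 8.39 FPKM, -0.89 ± 0.21, q = 0.00349) and MYB111 (-0.74 ± 0.23, q = 0.0445) and the glucosyltransferase UGT78D2 (-0.70 ± 0.21, q = 0.0207). DIR1, a lipid transfer protein gene of systemic resistance, fell from 268 to 74.0 FPKM (-1.84 ± 0.23), EARLI1 from 327 to 164 FPKM (-0.99 ± 0.24), and LTP4 rose from 1.05 to 9.77 FPKM (2.39 ± 0.35). HIS1-3, a linker histone gene induced by drought, rose from 7.77 to 18.5 FPKM (1.15 ± 0.28, q = 0.00622 per the authors' deposited table).

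**Figure D4:**
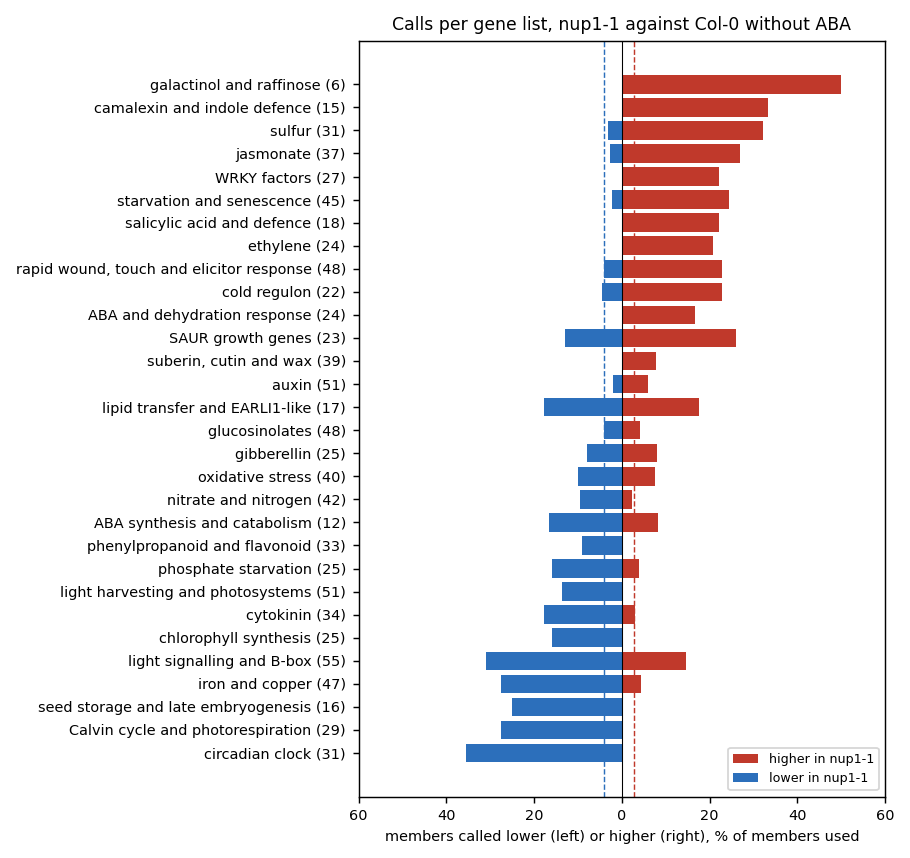
Percent of the members used of each gene list that were called lower (left) or higher (right) in nup1-1 without ABA, for lists with at least 3 calls. Dashed lines mark the 4.11% and 2.75% of all genes used that were called. Clock genes, 11 of 31, reach furthest on the lower side, and galactinol and raffinose genes, 3 of 6, on the higher side. Of these 3, GolS2 and GolS3 reached 1 FPKM only in nup1-1, so the share of this small list depends on the filter.

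Few markers of root, stomatal, vascular and shoot apex cells were called, against 2.75% higher and 4.11% lower among all genes used. With few genes per list, a lack of calls does not show that a cell type was unchanged. The seed storage and light-harvesting lists, which mark embryo character and green tissue, are given above, with medians of -0.85 and -0.67. None of 15 endodermis, 12 root apex and root cap and 22 stomatal lineage genes was called; at an unadjusted p under 0.05, 1, 0 and 0 were higher and 0, 0 and 4 were lower in the authors' deposited test. Of 29 root hair genes 1 was higher, the wall protein gene LRX2 (0.63 ± 0.19, q = 0.0347), of 31 vascular genes 1 was higher, the nuclease gene BFN1 (0.96 ± 0.23, q = 0.00349), and of 31 shoot apex genes 1 was lower, the growth regulator AN3 (-0.71 ± 0.21, q = 0.0245). At an unadjusted p under 0.05 in the authors' deposited test, 6, 1 and 1 genes of these lists were higher and 0, 0 and 3 lower. TRY, a repressor of trichome fate, fell from 5.52 to 0.602 FPKM, a log2 difference of -2.02 with no standard error to be had (q = 0.00494). Of 61 cell cycle and DNA replication genes, 2 fell, the cell cycle inhibitor LGO (78.2 to 40.9 FPKM, -0.92 ± 0.22) and AT1G08180 (-0.88 ± 0.28, q = 0.0389). Among all genes used, 4.11% were lower, so this list did not stand out. Its median was 0.18, with 44 above and 17 below 0, and at an unadjusted p under 0.05 in the authors' deposited test, 6 were higher and 4 lower.

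Other genes at the extremes of the comparison fall into no list. Among the lower ones, AT2G15020, a protein of unknown function, fell from 25.9 to 0.765 FPKM (-3.93 ± 0.26), the glutathione transferase gene GSTF14 from 35.4 to 2.63 FPKM (-3.32 ± 0.28) and QQS, a gene linked to starch content, from 10.8 to 0.866 FPKM (-2.66 ± 0.37). MIR163, the precursor of a microRNA, fell from 32.4 to 3.44 FPKM (-2.91 ± 0.29). A row that joins the genes AT5G24240 and AT5G24250 fell from 11.5 to 0.315 FPKM (-3.25 ± 0.36). The thionin gene AT1G66100, the cysteine proteinase gene AT2G27420, the glutaredoxin gene AT2G47880 and AT3G23170, of unknown function, fell, with log2 differences of -2.52, -2.75, -2.59 and -2.49. AT4G07820, a CAP family gene, fell from 7.58 to 0.314 FPKM (q = 0.0132 per the authors' deposited table).

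Among the higher ones, AT1G51035 was listed at 0 in Col-0 and at 12.1 FPKM in nup1-1 (q = 0.00622), and AT2G16367 at 0 and at 4.5 FPKM (q = 0.0245 per the authors' deposited table), so no fold is given for either. Both are short gene models. AT5G44440, a berberine bridge enzyme family gene, rose from 0.983 to 8.66 FPKM (2.29 ± 0.24), and AT5G44260, a tandem zinc finger gene, from 1.63 to 15.4 FPKM (2.64 ± 0.24). AT2G15960, annotated as a stress-induced protein, rose from 366 to 650 FPKM (0.83 ± 0.24, q = 0.0159).

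The second table asks whether the same genes differ on ABA. In the authors' deposited table for seedlings on ABA, 3051 of 19269 genes were higher in nup1-1, which is 15.8%, and 4594 were lower, which is 23.8%. Genes lower without ABA mostly stayed lower: of the 779, 750 could be used on ABA, and 565 of the 779, or 72.5%, were called lower and 39, or 5.01%, higher there, with a median log2 difference of -0.96. These are 12.3% of all genes lower on ABA and 1.28% of those higher. Genes higher without ABA mostly did not stay higher: of the 520, 477 could be used, 95, or 18.3%, were higher on ABA and 215, or 41.3%, lower, with a median of -0.31. These are 3.11% of the genes higher and 4.68% of the genes lower on ABA.

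For each gene, the genotype difference on ABA was set against that without ABA in a 2-sided Wald test with Benjamini-Hochberg adjustment, which rests on the reconstructed standard errors. The tables were normalised separately and share no library. Of 19218 genes tested, 3094 differed between media, which is 16.1%. Of the 500 genes higher without ABA that were tested, 368 differed, and 366 of these had a smaller or opposite genotype difference on ABA; 325 had the opposite sign, and 215 were called in the opposite direction. Of 765 genes lower without ABA, 261 differed, 124 with a larger genotype difference on ABA and 137 with a smaller or opposite one. The genes were chosen for being called without ABA, and the part of that choice in their smaller differences on ABA was not tested.

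Of 31 clock genes, 9 had a genotype difference that differed between media. RVE8 differed by -2.11 without and -2.12 with ABA, and BBX31 by -2.54 and -2.46, and neither pair differed by the Wald test (q = 0.992 and 0.947). RVE1, LHY and RVE2 were further apart on ABA, at -3.30, -1.96 and -2.55 (Wald q = 0.000284, 3.91e-05 and 0.0182). NEET was lower in both media, at -4.19 and -3.41 (Wald q = 0.155). Of the stress genes higher without ABA, some were lower with it: COR15A differed by 2.70 without and -1.70 with ABA (Wald q = 1.56e-30), LOX2 by 1.61 and -1.52 (Wald q = 1.97e-23), WRKY33 by 2.1 and -0.67 (Wald q = 2.23e-15) and TCH3 by 1.90 and -1.53 (Wald q = 4.83e-26). Others were higher in both media: LTI78 differed by 1.72 and 1.24 (Wald q = 0.374), the glutathione transferase gene GSTF6 by 0.79 and 0.81 (Wald q = 0.974), NAC042 by 1.24 and 1.13 (Wald q = 0.894) and ST2A by 1.13 and 1.16 (Wald q = 0.967). Of the sulfur genes, ATSDI1 differed by 1.78 and 1.77 (Wald q = 0.992), while LSU3 and LSU1 were closer to 0 on ABA, at 0.67 and 0.35.

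The pore and transport genes called without ABA include some that were higher in both media. RAN-1 differed by 1.09 without and 1.58 with ABA, XPO1B by 1.31 and 1.47 and AT1G59660 by 1.54 and 1.56, with Wald q of 0.292, 0.752 and 0.974. On ABA, 17 of 24 nucleoporin genes and 12 of 20 transport genes were called higher, against 2 and 2 without it. ABI5 was called higher in nup1-1 only in the ABA table, at 37.7 and 72.9 FPKM, and the Wald test of the change in genotype difference, 0.84, gave q = 0.00998. The Rieske gene PETC and the antenna gene LHCB2.3 were lower in both media, at -1.02 and -1.84 (Wald q = 0.12) and at -1.56 and -2.93 (Wald q = 4.4e-05). CAT2 (AT4G35090) was lower without ABA and 0.46 higher with it (Wald q = 1.13e-11).

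**Figure D5:**
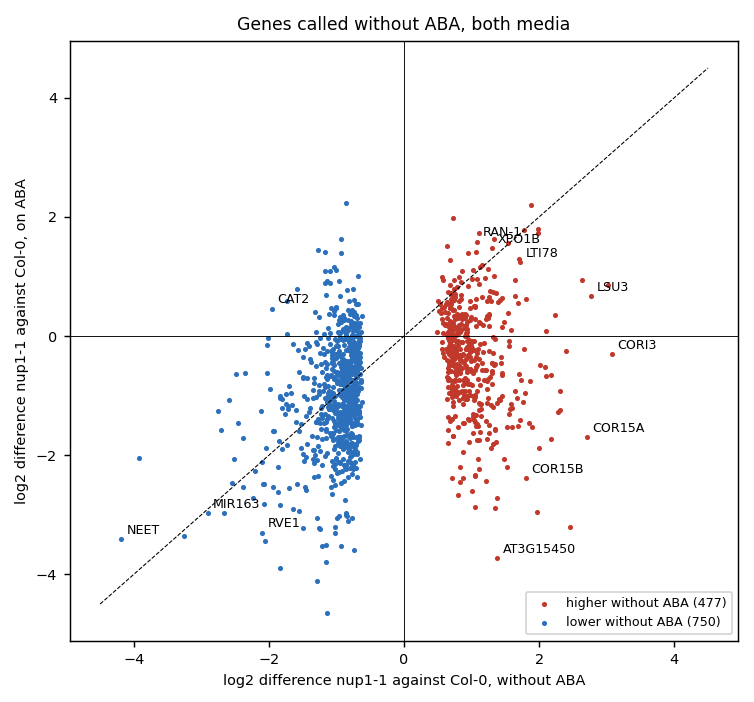
Log2 difference, nup1-1 against Col-0, without ABA (horizontal axis) and on ABA (vertical axis) for the 477 genes called higher and the 750 called lower without ABA that could be used on ABA; the dashed line marks equal differences. Most genes on the lower side stay below 0 on ABA, while those on the higher side scatter on both sides of 0.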

How the data were processed

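RNA-seq of 12 samples in 4 groups of 3 was used as 2 of the authors' deposited comparison tables, nup1-1 against Col-0 without and with ABA. Per the submitters' processing notes, the tools were TopHat, Trimmomatic and FastQC, and the build was TAIR10. Neither their versions nor the program behind the tables is given in the sources used here. Per the file headers, the authors deposited 1 FPKM value per gene and group, a test statistic, treated here as a score, and a p-value and q-value from their own test. No value per sample and no total count entered the work. The depth of each sample is thus unknown, and no count-based interval is given.

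Rows marked as tested and at 1 FPKM or more in either group were used: 18932 without ABA, 265 of them joining several genes, and 19269 with it. Log2 differences carry a pseudocount of 1 FPKM. The deposited statistic times 1.742 without ABA or 1.739 with it, factors fitted so that a normal p matches the deposited p, gave the normal deviate. The log2 difference divided by this deviate gave the standard error. For 86 rows used, an error computed from the p was over 1.5 times this one. For these, and for rows listed at 0 in a group, no error is printed (12 called rows), and the Wald test used the error from the p. Calls are at a deposited q under 0.05. The smallest deposited p, 5e-05, was shared by 500 rows, so q-values do not rank the strongest calls. The Wald test between media was run on simulated data with normal errors, drawn with the reconstructed standard errors. Such a simulation checks the calculation and cannot check those standard errors or the separate normalisation.

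Members of 52 gene lists (1690 of 1803 names had a locus) and of 49 families by product name were counted. The members and lists were chosen with earlier results of these data known. Genes named are NUP1 and ABI5, the 12 highest and 12 lowest called differences, the 5 called genes with the highest FPKM in each direction, up to 5 called members of a list in each direction, up to 3 members without a call with the highest FPKM, and the 5 genes on each side of NUP1. The other genes named were chosen after their values were seen. Gene symbols, product names and promoter windows of 250 bases are from RefSeq TAIR10.1; gene coordinates are the authors' on TAIR10. Of 32208 rows with a RefSeq locus of the same name, 8888 had the same start and end there and 28938 had both ends within 1000 bases. Python 3.11.15 with pandas 2.3.3, numpy 2.4.6, scipy 1.17.1 and matplotlib 3.10.9 was used. Alternatives tried were other filters, thresholds, pseudocounts, adjustments, centring and standard errors.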

Additional observations from a re-analysis of the deposited data

Results flagged for a closer look

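The genotype difference differed between media for 3094 of 19218 genes by the 2-sided Wald test with Benjamini-Hochberg adjustment. Of the genes with the strongest changes or the highest levels, and ABI5, 21 were among them. The values below are the log2 genotype difference on ABA minus that without ABA, so a negative value means that nup1-1 stood lower against Col-0 on ABA than without it.

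All of these genes that were higher in nup1-1 without ABA had a negative value. They were chosen for their difference or level without ABA, and the value subtracts that same difference. The part of this choice in the sign and size of the values was not tested. The cold gene COR15A changed by -4.41 (q = 1.56e-30), KIN2 by -1.92 (q = 3.21e-06), and the ABA- and jasmonate-responsive factor NAC3 (AT3G15500) by -3.55 (q = 1.46e-28). The jasmonate markers CORI3 and VSP2 changed by -3.38 (q = 1.13e-20) and -3.24 (q = 4.17e-21). The starvation genes SEN1 (AT4G35770) and DIN10 changed by -2.16 (q = 8.35e-13) and -2.48 (q = 5.47e-11), and the sulfur genes LSU3 and LSU1 by -2.10 (q = 6.84e-08) and -1.88 (q = 1.41e-07).

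The lipid transfer gene LTP4 changed by -2.64 (q = 4.13e-10), the berberine enzyme family gene AT5G44440 by -3.56 (q = 1.21e-32) and the zinc finger gene AT5G44260 by -1.69 (q = 3.9e-08). The abundant genes AT3G15450 and AT2G15960 changed by -5.11 (q = 1.16e-26) and -3.03 (q = 5.32e-23). AT2G16367 was listed at 0 FPKM in untreated Col-0 and in nup1-1 on ABA, so its value of -5.67 (q = 7.12e-06) is set by the pseudocount of 1 FPKM and is no size of change.

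Of genes lower in nup1-1 without ABA, AT2G27420 and AT3G23170 came closer to Col-0 on ABA. AT2G27420 changed by 1.5 (q = 1.43e-05) and AT3G23170 by 1.85 (q = 1.26e-08). AT2G15020 changed by 1.88 (q = 1.01e-07), but in nup1-1 it stood at 0.765 FPKM without ABA and 0.217 FPKM with it. Both levels are under the pseudocount of 1 FPKM, which sets part of the value. The value of AT2G15020 thus does not show that the genotypes came closer. GSTF14 was at 0.902 FPKM in Col-0 and listed at 0 in nup1-1 on ABA, under the filter of 1 FPKM, so its value of 2.4 (q = 2.21e-09) is set by the pseudocount and does not show that the genotypes came closer. Carbonic anhydrase, CA1, went the other way and changed by -2.36 (q = 1.79e-06). ABI5, which was not called without ABA, changed by 0.84 (q = 0.00998).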

How the results depend on the processing

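No paired analysis was possible because the deposited tables hold 1 value per gene and group and no value per sample; leaving out each replicate in turn was not run for the same reason. The 520 higher and 779 lower calls became 285 and 448 at a q threshold of 0.01, and 203 and 280 with a log2 difference of at least 1, both by construction. Without a filter there were 536 and 785, at 5 FPKM or more 378 and 721, adjusted over the genes used 525 and 794, with a p rebuilt from the statistic 582 and 873, and with the median subtracted 520 and 779. The 3094 genes that differed between media became 2290 with errors from the deposited p, 2723 at 5 FPKM or more and, in a setting added after the data were seen, 3057 with no pseudocount. A pseudocount cannot turn a sign; over the 181 called genes named that were above 0 in both groups, the median size of the log2 difference was 1.13, with 0.1 FPKM as pseudocount 1.33 and with none 1.36. Subtracting the median, -0.02, turned the sign of 4 of 346 named differences, none of them called. With q rebuilt from the statistic, WRKY40, AT2G44130, CRD1, AT3G59940, CRU3 and FSD1 passed the threshold as well. List counts moved by over 1.5 times in 27 of 104 at a q threshold of 0.01 and in 2 without a filter. The tables hold no depth, so what a deeper library would show for genes near 1 FPKM cannot be said.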
